A study of Mus musculus with 6 samples.

Results

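The genes described here encode the enzymes that modify drugs, dietary chemicals and endogenous lipids, and the pumps that export the products from the cell. They were the 89 genes, of 14338 in the authors' deposited comparison table, whose symbol began with Cyp2, Cyp3 or Cyp4 and a letter, with Ugt, with Gst and a letter, with Sult, with Ces1 or Ces2, or with Abcb1, Abcc1 to Abcc6 or Abcg2. Beside the symbol an entry in that table was required, and the Cyp1 genes were left out. Phase 1 held 40 genes (18 Cyp2, 4 Cyp3, 8 Cyp4 and 10 carboxylesterases), phase 2 held 38 (11 Ugt, 20 Gst and 7 Sult), and efflux held 11 (3 Abcb, 7 Abcc and 1 Abcg). Abcb10 and Abcc10 matched by the start of their symbol alone, and Ces2d-ps and Cyp2d37-ps are annotated as pseudogenes. A further 108 genes of the count table had a matching symbol but no entry in the authors' deposited comparison table, and these held at most 103 reads each over the 6 libraries, 50 of them none.

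Total RNA, with ribosomal RNA removed before library making, was sequenced from the epithelial cells that EDTA and DTT released from the mouse colon. There were 3 libraries from wild type mice and 3 from Lingo2-/- mice, which lack a membrane protein with leucine-rich repeats. All mice were 2 months old and were kept unchallenged, so both genotypes describe the resting colon with no drug given. Sex, strain and the making of the allele were not given in the sources used here. Nor is it said whether each library is a separate animal, and the p-values thus describe scatter among libraries, part of which may be technical.

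Each wild type library held 25010618 to 28029583 gene reads and each Lingo2-/- library 7060769 to 13047682, of which mitochondrial genes took 45.3% to 48.4% and 35.7% to 39.8%. Reads on Lingo2, the targeted gene, came to 0, 7 and 0 per wild type library (replicates 1 to 3) against 1, 1 and 0 per Lingo2-/- library, too few to check the labels. A list of 12 epithelial identity genes, Epcam among them, summed to 5351 to 6332 CPM (read counts scaled to library size) in wild type and 5608 to 6475 CPM in Lingo2-/- libraries, with none called and none at an unadjusted p under 0.05, and none called by DESeq2 or limma voom. Genes of some cell types did differ, both outside and within the epithelium. Called lower were 14 of 15 T cell and intraepithelial lymphocyte genes, with sums of 491 to 586 CPM against 210 to 241 CPM. Of 12 goblet cell genes, 4 were called higher, and of 18 surface colonocyte genes 1, Tmigd1, was called lower. Over all genes tested, 2.57% were called. In bulk RNA, fewer cells of a type and less RNA per cell cannot be told apart, and the part of cell makeup in the results that follow was not tested.

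Phase 1 enzymes add or uncover a reactive group: cytochromes P450 oxidise their substrates, and carboxylesterases cut esters and amides. Phase 2 enzymes then attach glucuronic acid (Ugt), glutathione (Gst) or sulfate (Sult), which makes the product more soluble. Pumps of the ABC class, driven by ATP, move parent drugs and conjugates across the membrane, and in the gut the apical pumps P-glycoprotein and Abcg2 return them to the lumen. Many of these genes are known to be expressed most in differentiated epithelial cells.

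Across the 3 groups, 3 of the 89 members passed the test between genotypes and all 3 were lower in Lingo2-/- libraries: the cytochrome P450 Cyp3a44, the carboxylesterase Ces2a and the pump Abcb1a. This is 3.37% of the members, beside 2.57% of the 16757 genes tested (edgeR adjusted p under 0.05). In this fit the share of members called was thus near that of all genes. For calls in the lower direction the figure over all genes was 1.52%. All 89 members passed the filter on low counts. Phase 1 had 2 of 40 called, phase 2 had 0 of 38 and efflux had 1 of 11. At an unadjusted p under 0.05 there were 19 members (21.3%), 17 lower and 2 higher, beside 18.6% of all genes. The genotypes did not overlap for 19 members (21.3%), 16 lower and 3 higher, beside 24.1% of all genes, with 11.8% lower and 12.3% higher. Over all genes 1.04% were called higher. Calls differed between tools. The DESeq2 Wald test called 11 of the 89 members, a larger share than the 4.25% of its genes. With no filter on low counts edgeR called 14 of the 89, also a larger share than the 5.18% of the 28829 genes then tested. The latter added Abcb1b, Abcg2, Ces2c, Cyp2c55, Cyp2d22, Cyp3a11, Cyp3a13, Cyp3a25, Gstm3, Sult1d1 and Ugt2b5. Without that filter Ces2a had an unadjusted edgeR p of 1.3e-20 at a change of -1.06, against 0.000453 at -1.04 with it. Passes that rest on leaving out the filter are thus weak support. Calls and p-values of edgeR are from the fit with that filter and no replicate block, unless another setting is named. The block treats libraries of the same replicate number as pairs, which the labels do not state, so a pass with it is no added support.

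The fitted log2 fold change (Lingo2-/- over wild type) was below 0 for 52 members and above 0 for 37, and 73 members lay within 0.5 of 0. Its median was -0.09 over the members, with -0.12 for phase 1, -0.04 for phase 2 and 0.01 for efflux, beside 0.00 over all genes tested. Scaling to total counts moved the median of all genes by 0.24 and left 28 members below 0 and 61 above. The sign of a small difference therefore depends on the scaling, whereas Cyp3a44, Ces2a and Abcb1a were lower under each scaling tried.

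**Figure D1:**
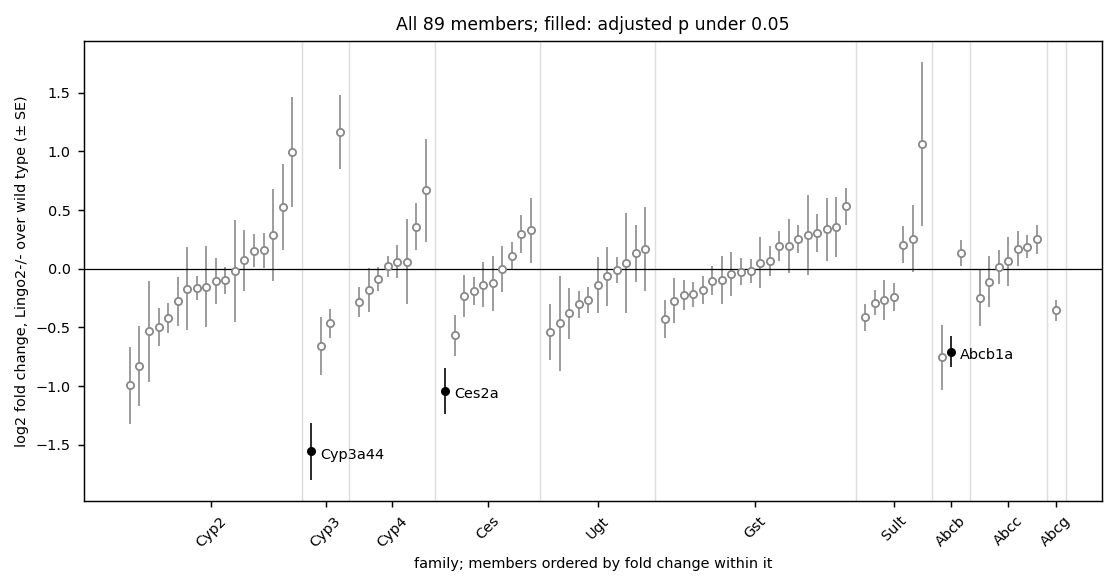
Fitted log2 fold change of each of the 89 members (points, with SE bars), Lingo2-/- over wild type, ordered within each gene family. Cyp3a44, Ces2a and Abcb1a (filled) passed the test, and most other members lay within 0.5 of 0 on the log2 scale.

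Levels per exon length (RPKM, CPM per kilobase of exon) spanned a wide range. Cyp2c55, an arachidonic acid and xenobiotic oxidase of the colon, stood first at 1018 ± 87.0 RPKM (SD, n = 3) in wild type. Next came Ces2a at 173 RPKM, Ces2c at 137 RPKM, Abcb1a at 129 RPKM, Cyp2d34 at 103 RPKM and Sult1d1 at 102 RPKM, and each gap between neighbours from Ces2a down to Sult1d1 was smaller than the larger of their SDs, which were 49.4 for Ces2a, 30.7 for Ces2c and 29.7 for Cyp2d34. In wild type, 30 members were at 10 RPKM or more, 45 at 1 to 10 RPKM and 14 below 1 RPKM.

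Among the 30 members at 10 RPKM or more, 26 had a fitted log2 fold change below 0, with a median of -0.22. The groups did not overlap for 10 of them, all lower, and 2 were called. Over the 2757 genes tested at that level, 1651 were below 0 and the median was -0.05. Among these genes 768 (27.9%) did not overlap, 505 lower and 263 higher, and 4.06% were called. Both sets were cut on the wild type level alone, which can tilt them towards values below 0. With total counts, 14 of the 30 members lay below 0 and 16 above. The 45 members at 1 to 10 RPKM were balanced, with 22 below 0, 23 above and a median of 0.02.

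**Figure D2:**
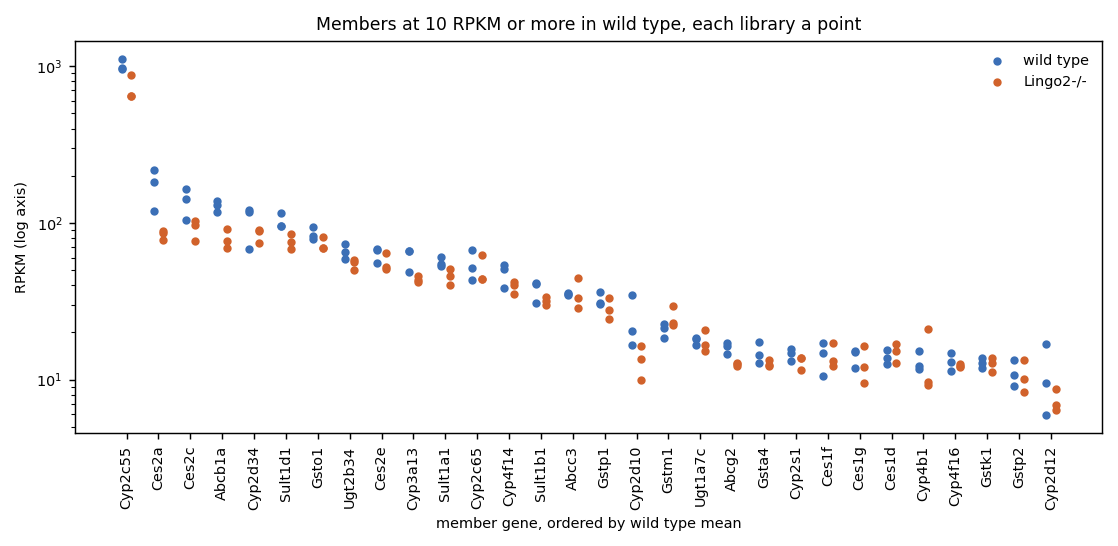
RPKM (log axis) of the 30 members at 10 RPKM or more in wild type, 1 point per library, coloured by genotype. Cyp2c55 stands above the rest at 641 to 1118 RPKM, and the Lingo2-/- points lie below all wild type points for 10 genes, among them Ces2a, Ces2c and Abcb1a.

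Cyp3a genes encode the P450 enzymes with the widest range of drug substrates, and their 4 members gave values on both sides of 0. Cyp3a44 (chr5:145773983-145805874, minus strand, GRCm38) stood at 13.3, 12.5 and 14.9 CPM in wild type replicates 1, 2 and 3 and at 6.27, 4.61 and 2.43 CPM in Lingo2-/- replicates 1, 2 and 3. Every Lingo2-/- library lay below every wild type library, at 34.0% of the wild type level in the fit. Cyp3a44 fell by 1.56 on the log2 scale (SE 0.25, edgeR adjusted p = 0.00996), the fall with the smallest p among the members. Without Lingo2-/- replicate 2 the change was -1.57 and the adjusted p 0.0629. Of its exon sequence, 26.5% in windows of 50 bases also occurs in other genes, first in Cyp3a41a, which had 0 reads in every library. Alignments that were not unique stood in a summary line that was left out, so reads from such windows may be missing from either count.

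Cyp3a11, the mouse counterpart of the main human drug-oxidising P450 and a target of the receptor PXR, lies beside Cyp3a44 and had values on the other side. It was rare, with 33, 49 and 72 reads in wild type and 51, 55 and 38 reads in the shallower Lingo2-/- libraries. On the CPM scale these were 1.52, 1.83 and 3.07 against 3.52, 6.86 and 4.396. The groups did not overlap, yet the fitted change of 1.17 ± 0.32 (SE) did not pass the test (edgeR adjusted p = 0.0803). It passed without wild type replicate 3 (change 1.51, adjusted p 0.0215), and the DESeq2 Wald test gave an adjusted p of 0.0191. Without Lingo2-/- replicate 2 the change was 0.86 (edgeR adjusted p 0.252), and the other fits without 1 library did not pass either. Genes of the small intestine, where Cyp3a11 is also expressed, lay mostly on the same side: edgeR and limma voom called none of 20, DESeq2 called 4 higher, 17 lay above 0, and 10 had an unadjusted p under 0.05, of which 8 were higher and 2 lower. The summed CPM of the 20 genes overlapped, at 814, 934 and 1180 in wild type and 955, 1445 and 970 in Lingo2-/- libraries. Changes of single genes on that list ran from -1.76 to 1.77. Lct, the lactase gene and 1 of the 20, was at 4.55, 5.74 and 7.20 CPM and at 10.1, 29.2 and 14.0 CPM. Its highest value was in Lingo2-/- replicate 2, as for Cyp3a11. The part of such transcripts in the Cyp3a11 values was not tested.

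Cyp3a25 lies in the same cluster and was at 7.41, 11.9 and 10.6 CPM in wild type and 5.998, 8.73 and 4.396 CPM in Lingo2-/- libraries. Its groups overlapped (log2 fold change -0.66 ± 0.25, adjusted p 0.189). Cyp3a13, on the same chromosome but apart from the cluster, was the most abundant Cyp3a gene at 60.3 RPKM in wild type. Its CPM values were 197, 143 and 194 against 135, 128 and 124, with no overlap, and the change of -0.46 ± 0.12 had an edgeR adjusted p of 0.0714. It passed without wild type replicate 2 (change -0.60, adjusted p 0.0120), with counts thinned to the shallowest library (adjusted p 0.0273) and under DESeq2 (adjusted p 0.0284). The other fits without 1 library did not pass (edgeR adjusted p 0.126 to 0.209).

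The sequences before the starts of Cyp3a44 and Cyp3a11 are shown because these neighbours gave opposite signs. Both come from RefSeq (GRCm38.p6, minus strand, 250 bases before the start, read 5′ to 3′). They are chr5:145805875-145806124 for Cyp3a44 and chr5:145879855-145880104 for Cyp3a11, whose RefSeq start lies 110 bases from the GENCODE start.
Cyp3a44: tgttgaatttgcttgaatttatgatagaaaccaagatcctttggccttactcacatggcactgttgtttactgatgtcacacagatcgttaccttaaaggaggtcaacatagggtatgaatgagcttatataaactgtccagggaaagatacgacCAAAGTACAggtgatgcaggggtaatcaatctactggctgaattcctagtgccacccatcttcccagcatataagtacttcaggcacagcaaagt
Cyp3a11: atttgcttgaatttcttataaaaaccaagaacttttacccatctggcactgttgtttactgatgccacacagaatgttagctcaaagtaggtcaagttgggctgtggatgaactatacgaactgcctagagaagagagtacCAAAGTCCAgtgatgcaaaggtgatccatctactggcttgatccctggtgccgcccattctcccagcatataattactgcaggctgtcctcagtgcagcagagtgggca
Capitals mark the letters CAAAGTCCA, the HNF4 motif searched, in Cyp3a11 (first base 109 before the start) and the letters aligned to it in Cyp3a44 (first base 95 before the start), of which 8 of 9 are the same. Over the alignment, 192 of 235 bases (81.7%) were the same. The HNF4 letters on either strand occurred in 4 of 92 member promoters (4.35%), those of Cyp2c65, Cyp2c68, Cyp2c69 and Cyp3a11, and in 0.384% of 32851 promoters of the same length. Cyp2c65, Cyp2c68 and Cyp2c69 are of the same gene family, so these matches may not be separate occurrences. The 92 promoters belong to the 73 members that matched the RefSeq table. A match is a description of letters, and binding was not measured.

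Cyp2c55 carried 47.9% of the summed CPM of phase 1. It stood at 1922, 1940 and 2231 CPM in wild type and at 1760, 1278 and 1281 CPM in Lingo2-/- libraries. All Lingo2-/- values were below all wild type values, with replicate 1 close to the wild type range. The change of -0.50 ± 0.16 did not pass the test (edgeR adjusted p = 0.123), and the DESeq2 Wald test gave an adjusted p of 0.0175. Its neighbours Cyp2c65 (-0.11 ± 0.19) and Cyp2c66 (1.00 ± 0.47) overlapped between genotypes, the latter on 8 to 28 reads per library.

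The Cyp2d genes, relatives of the human enzyme that oxidises many antidepressants and opioids, form a cluster on chromosome 15 with 7 members. None was called by edgeR or limma voom, 2 had an unadjusted p under 0.05, DESeq2 called 2 (Cyp2d9 and Cyp2d10), and 5 of 7 were below 0 under each scaling tried. Cyp2d9 was at 36.0, 17.6 and 23.8 CPM against 14.4, 8.85 and 15.04 CPM, with no overlap (log2 fold change -0.99 ± 0.33, edgeR adjusted p 0.189). With the replicate block in the edgeR fit, on numbers that the labels do not say are pairs, Cyp2d9 passed (adjusted p 0.00727). Cyp2d10 was at 56.9, 27.3 and 33.6 CPM against 22.3, 16.5 and 27.2 CPM, where the groups were separated by a small gap (-0.83 ± 0.34, adjusted p 0.281). Cyp2d22 was at 35.1, 27.75 and 31.6 CPM against 27.2, 22.3 and 20.5 CPM (-0.42 ± 0.13, adjusted p 0.102), and it passed in edgeR with no filter (adjusted p 0.00492). These genes varied within wild type too: 6 of the 7 were lowest in replicate 2, and Cyp2d12 spanned 2.82-fold among the 3 wild type libraries. Cyp2d34, the most abundant of them, overlapped between genotypes (-0.28 ± 0.21). In exon windows of 50 bases, Cyp2d10 shares 35.8% and Cyp2d9 21.8% with other genes, so their separate counts are uncertain.

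Of the remaining Cyp2 members (Cyp2c68, Cyp2c69, Cyp2j6, Cyp2j9, Cyp2r1, Cyp2s1, Cyp2u1 and Cyp2w1) none had groups that did not overlap. Their changes ran from -0.17 for Cyp2j9 to 0.52 for Cyp2c68. The 8 Cyp4 genes, which hydroxylate the ends of fatty acids and eicosanoids, gave no call by edgeR, DESeq2 or limma voom, and 1 had an unadjusted p under 0.05. That gene was Cyp4f14, the most abundant, at 122, 93.1 and 130 CPM against 85.6, 97.1 and 101 CPM (-0.28 ± 0.13, edgeR adjusted p 0.251). Cyp4f17, at 4.55, 4.33 and 4.56 CPM against 4.27, 4.24 and 3.24 CPM, was the 1 Cyp4 gene without overlap, by a narrow gap (-0.18 ± 0.19). Cyp4v3 (0.36 ± 0.20) and Cyp4f18 (0.67 ± 0.44) had the highest changes of the family and overlapped, the latter below 1 RPKM in wild type, and Cyp4f13, Cyp4f16 and Cyp4f40 lay from -0.09 to 0.06. Cyp4b1 stood apart in 1 library only, with 47.8 CPM in Lingo2-/- replicate 1 and 20.8 to 34.5 CPM in the other 5. Its change of 0.06 ± 0.36 became -0.48 without that library.

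Carboxylesterases of the Ces2 cluster on chromosome 8 hold the second call of phase 1. Ces2a (chr8:104734003-104741634, plus strand, GRCm38), a lipid and drug ester hydrolase of the intestine, stood at 511, 281 and 431 CPM in wild type and 209, 183 and 203 CPM in Lingo2-/- libraries. The Lingo2-/- values were close together and below the lowest wild type value, replicate 2. Ces2a fell by 1.04 on the log2 scale (SE 0.19, edgeR adjusted p = 0.0280), to 48.6% of the wild type level. The call was lost without Lingo2-/- replicate 1 (adjusted p 0.0724), replicate 2 (0.111) or replicate 3 (0.12), while the change stayed between -1.25 and -0.85 over the 6 fits without 1 library. With total counts the ratio of means was -0.79 on the log2 scale.

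Ces2c, its near neighbour, was at 379, 239 and 327 CPM against 236, 176 and 224 CPM. The groups nearly touched, at 239 and 236 CPM, and the change of -0.57 ± 0.17 had an edgeR adjusted p of 0.115. It passed without wild type replicate 2 (change -0.74, adjusted p 0.0214), in which all 6 Ces2 members had their lowest wild type value. Without Lingo2-/- replicate 2 its change was -0.46 (edgeR adjusted p 0.277), and the other fits without 1 library did not pass either. Ces2c also passed under the DESeq2 Wald test (adjusted p 0.0227) and, in edgeR, with the replicate block (0.0446) and with no filter (8.3e-06). Ces2e (-0.19 ± 0.12), Ces2b (-0.23 ± 0.18), Ces2g (-0.13 ± 0.24) and the pseudogene Ces2d-ps (0.33 ± 0.27) overlapped. Below 0 in all were 5 of the 6 Ces2 members, and 3 of 6 with total counts. Windows of 50 bases shared with other genes made up 17.3% of Ces2a and 36.1% of Ces2c. The 4 Ces1 members lay from -0.13 (Ces1g) to 0.30 (Ces1e), with none called by edgeR, DESeq2 or limma voom and none at an unadjusted p under 0.05. Of these, Ces1e did not overlap, at 5.34, 5.86 and 6.52 CPM against 7.17, 6.61 and 7.98 CPM (adjusted p 0.347).

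The sequences before the starts of Ces2a (chr8:104733753-104734002) and Ces2c (chr8:104846818-104847067) are shown as those of the called esterase and of its abundant neighbour (RefSeq, GRCm38.p6, plus strand, 250 bases, 5′ to 3′).
Ces2a: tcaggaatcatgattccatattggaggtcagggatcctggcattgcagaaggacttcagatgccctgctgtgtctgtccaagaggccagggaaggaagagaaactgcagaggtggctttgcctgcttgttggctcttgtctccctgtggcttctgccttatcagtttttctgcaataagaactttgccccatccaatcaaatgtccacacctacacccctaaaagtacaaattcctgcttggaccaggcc
Ces2c: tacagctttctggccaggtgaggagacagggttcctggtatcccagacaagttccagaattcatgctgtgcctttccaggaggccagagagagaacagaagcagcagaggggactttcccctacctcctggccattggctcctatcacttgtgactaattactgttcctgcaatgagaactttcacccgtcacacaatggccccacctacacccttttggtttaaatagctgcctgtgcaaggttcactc
They align at 229 bases, of which 170 (74.2%) are the same, and none of the 6 motifs searched was found in either, so no capitals are used. The other motifs, on both strands, were ARE TGACNNNGC (9.78% of member promoters, 10.2% of all), XRE GCGTG (19.6% and 28.2%), E-box CACGTG (3.26% and 6.02%), D-box TTATGNAA (5.44% and 3.07%) and the HNF1 motif (0% and 0.00913%). As background, Nrf2 binds the ARE and the dioxin receptor Ahr the XRE. No motif searched other than HNF4 and the D-box was in a larger share of member promoters than of all promoters.

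**Figure D3:**
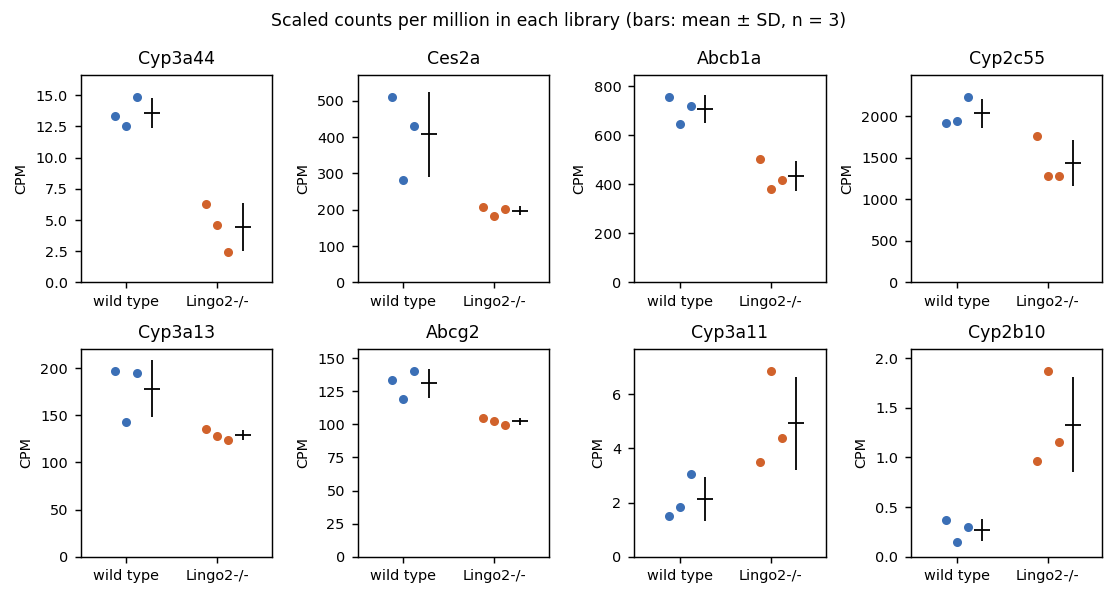
CPM in each library (points; bars show mean ± SD, n = 3) for the called members Cyp3a44, Ces2a and Abcb1a, for Cyp2c55, Cyp3a13, Abcg2 and Cyp3a11, which did not pass the test, and for Cyp2b10, which is no member but was called higher. The genotypes do not overlap in any of the 8 panels. Cyp2b10 passed the filter on low counts only through its Lingo2-/- libraries.

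In phase 2, no gene of 38 was called by edgeR or limma voom, 6 had an unadjusted p under 0.05 (5 lower and 1 higher), and the DESeq2 Wald test called 1, Sult1d1. The glucuronosyltransferases of the Ugt2b family and 2 sulfotransferases form 1 cluster on chromosome 5. All 6 members of it lay below 0 under each scaling tried. Their changes ran from -0.54 (Ugt2b5) to -0.24 (Sult1b1) in the fit, and from -0.33 to -0.0012 with total counts. Ugt2b34, the most abundant Ugt, was at 316, 254 and 283 CPM against 248, 217 and 244 CPM (-0.26 ± 0.11, edgeR adjusted p 0.229). Its groups were separated by a small gap. Sult1d1, a sulfotransferase of catecholamines and phenols, was at 234, 236 and 284 CPM against 209, 168 and 187 CPM, with no overlap (-0.41 ± 0.12, edgeR adjusted p 0.0871).

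The 6 Ugt1a genes join separate first exons to shared last exons, and 50.3% to 60.6% of their exon length overlaps that of another gene on the same strand. Their counts therefore cannot be fully told apart. Ugt1a7c, with the highest CPM of them, was at 70.0, 78.4 and 76.3 CPM against 87.1, 64.6 and 70.3 CPM, an overlap with a change of -0.01 ± 0.11. Its annotated end, at base 88220002, lies past those of the others, at 88218997 or 88219003. Of the 6, reads beyond those ends can count for Ugt1a7c alone, and their part in its level was not tested. All 6 had their lowest wild type value in replicate 1 and their highest Lingo2-/- value in replicate 1. None was called by edgeR, DESeq2 or limma voom or had an unadjusted p under 0.05. Ugt1a1, the enzyme that conjugates bilirubin, was at 8.83, 13.2 and 12.7 CPM against 10.8, 5.98 and 9.49 CPM (-0.38 ± 0.22).

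Among the 20 Gst genes, 10 lay below 0 and 10 above. The 7 mu class genes (Gstm1 to Gstm7) on chromosome 3 all lay above 0 under each scaling tried. In the fit they ran from 0.05 (Gstm6) to 0.53 (Gstm3), and 1 had an unadjusted p under 0.05. That gene, Gstm3, was at 8.37, 9.99 and 9.07 CPM in wild type and 11.4, 16.5 and 12.3 CPM in Lingo2-/- libraries. It had no overlap but did not pass the test (0.53 ± 0.16, edgeR adjusted p 0.0979). Gstm1 and Gstm2, of the same class, overlapped at 0.25 ± 0.12 and 0.31 ± 0.16. The most abundant Gst, Gsto1 of the omega class, was at 189, 159 and 167 CPM against 140, 139 and 164 CPM, which overlap (-0.22 ± 0.11). Gstp1, of the pi class, also overlapped (-0.18 ± 0.12), and the 3 theta class genes lay from -0.27 to -0.02, with 1 of 3 below 0 with total counts. Gstcd, which carries a Gst-like domain, was at 7.91, 8.80 and 8.65 CPM against 6.14, 5.24 and 7.52 CPM (-0.43 ± 0.16, adjusted p 0.187). Gsta1 shares 90.5% of its exon windows with other genes, first Gsta2, which had 1 read over the 6 libraries, so the Gsta1 counts are uncertain.

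Of the sulfotransferases outside that cluster, Sult1a1, the main phenol sulfotransferase, was at 79.5, 82.0 and 91.1 CPM against 77.1, 68.8 and 60.3 CPM. The groups were separated by a small gap, and the change of -0.29 ± 0.11 did not pass the test (edgeR adjusted p 0.164). Sult6b2, with 13 to 73 reads per library, had the highest fitted change in phase 2 (1.07 ± 0.70, edgeR adjusted p 0.471), with groups that overlapped. Wild type replicate 3, at 3.11 CPM, stood above the other wild type libraries at 0.598 and 0.932 CPM, and without it the change was 2.05 and passed (adjusted p 0.0350). Without Lingo2-/- replicate 2 the change was 0.67 (edgeR adjusted p 0.739), and the other fits without 1 library did not pass either.

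Efflux held 1 call. Abcb1a (chr5:8660077-8748575, plus strand, GRCm38) encodes P-glycoprotein, the apical pump that expels many drugs. It stood at 757, 646 and 718 CPM in wild type and at 501, 380 and 417 CPM in Lingo2-/- libraries. No Lingo2-/- library reached the lowest wild type value. Abcb1a fell by 0.71 on the log2 scale (SE 0.13, edgeR adjusted p = 0.0151), to 61.2% of the wild type level. The call was lost without Lingo2-/- replicate 2 (change -0.63, adjusted p 0.0862) or replicate 3 (change -0.69, adjusted p 0.0788). With total counts the ratio of means was -0.46 on the log2 scale.

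The paralog Abcb1b, beside it, was rare in this fraction, at 6.76, 8.09 and 4.17 CPM against 3.17, 5.11 and 3.24 CPM. It overlapped (-0.75 ± 0.28, edgeR adjusted p 0.177), and passed without wild type replicate 3 (change -0.99, adjusted p 0.0397) and with no filter (0.0074). The other fits without 1 library did not pass (edgeR adjusted p 0.164 to 0.409). Further, 17.6% of the exon windows of Abcb1a also occur elsewhere, first in Abcb1b. Abcg2, the apical pump of sulfate conjugates and urate, was at 134, 119 and 140 CPM against 105, 102 and 99.7 CPM. The Lingo2-/- values lay close together below all wild type values, but the change of -0.36 ± 0.09 did not pass the test (edgeR adjusted p 0.0659). DESeq2 gave an adjusted p of 0.0497.

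The 7 Abcc genes gave no call by edgeR, DESeq2 or limma voom, none had an unadjusted p under 0.05, and all overlapped. Abcc3, the basolateral exporter of glucuronides and bile acids, was at 203, 199 and 201 CPM in wild type and 255, 163 and 188 CPM in Lingo2-/- libraries. Its wild type libraries were nearly equal, and Lingo2-/- replicate 1 set the mean (0.01 ± 0.14, and -0.20 without that replicate). The others ran from Abcc5 (-0.25 ± 0.24), an exporter of cyclic nucleotides, to Abcc10 (0.25 ± 0.12). Abcc1, the widely expressed basolateral pump of glutathione conjugates, was at 36.2, 36.3 and 41.6 CPM against 45.3, 39.3 and 45.4 CPM, which overlap (0.19 ± 0.10), and Abcc4 (0.17 ± 0.15) and Abcc6 (0.06 ± 0.21) did so too. Abcc2, the apical partner of Abcc3, was low at 0.845 RPKM in wild type (-0.11 ± 0.22), and Abcb10, a pump of the mitochondrial inner membrane, was at 0.13 ± 0.11.

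**Figure D4:**
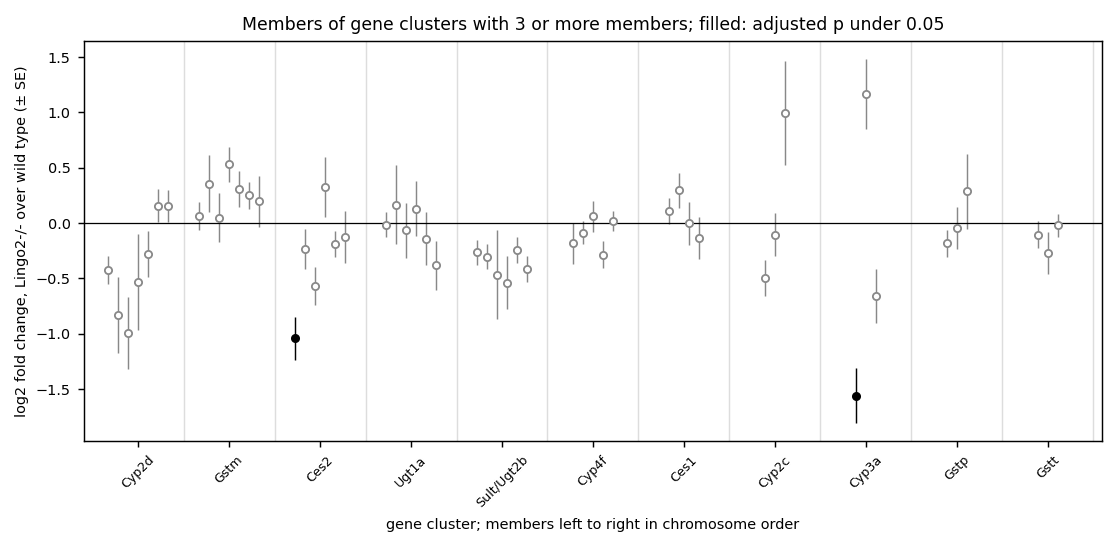
Fitted log2 fold change (points, with SE bars), Lingo2-/- over wild type, of members in gene clusters with at least 3 members, each cluster in chromosome order. The Gstm points all lie above 0, the Ugt2b and Sult points all below 0, and the Cyp3a cluster holds values from -1.56 to 1.17.

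Summed over members, phase 1 gave 4336, 3705 and 4515 CPM in wild type and 3533, 2814 and 2853 CPM in Lingo2-/- libraries, a ratio of 0.733. Phase 2 gave 1340, 1279 and 1366 CPM against 1223, 1064 and 1171 CPM (0.868), and efflux gave 1230, 1126 and 1224 CPM against 1036, 806 and 855 CPM (0.753). The Lingo2-/- libraries were below the wild type libraries in all 3 groups, and in each replicate 1 was the nearest. The sums rest on few genes: Cyp2c55 made up 47.9% of phase 1, Ugt2b34 21% of phase 2 and Abcb1a 54.5% of efflux. Without these the ratios were 0.755 (overlapping), 0.878 and 0.958 (overlapping). With total counts all 3 groups overlapped, at ratios of 0.868, 1.02 and 0.891. The surface colonocyte genes, summed in the same way, ran from 13179 to 17202 CPM in wild type and from 10601 to 13300 CPM in Lingo2-/- libraries, with 17 of 18 below 0 and a median of -0.31. Their part in the sums was not tested.

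**Figure D5:**
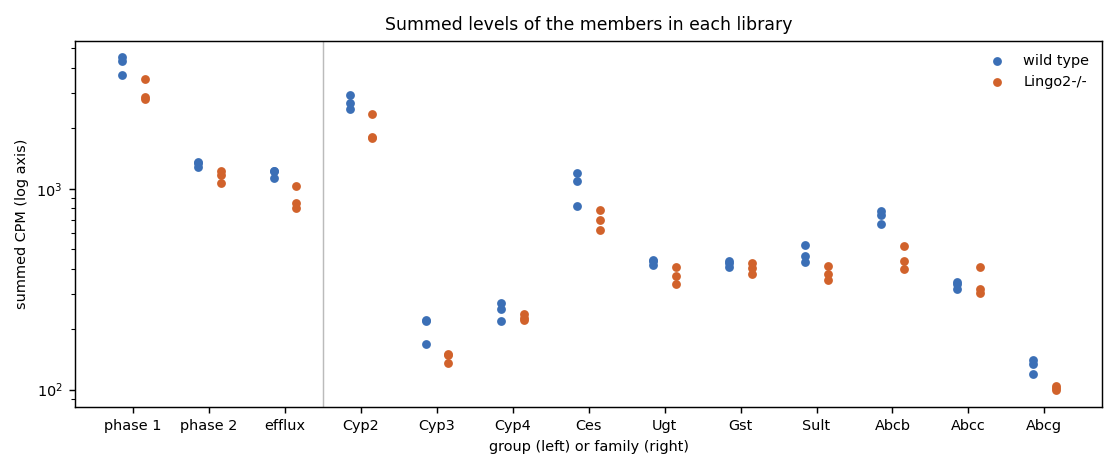
Summed CPM (log axis) of the members by group (left of the line) and by family (right of it), 1 point per library. The Lingo2-/- points lie below the wild type points for phase 1, phase 2 and efflux, whereas Cyp4, Gst and Abcc overlap.

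The libraries of 1 genotype were not alike. Of the 30 members at 10 RPKM or more, 23 were highest among the Lingo2-/- libraries in replicate 1 and 21 were lowest in replicate 2, beside 891 and 1244 of the 2757 genes at that level. Replicate 1 is also the deepest Lingo2-/- library and replicate 2 the shallowest, and the part of depth was not tested.

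The other genes of the pathway were 77 listed regulators, cofactor suppliers, further enzymes and uptake carriers, of which 71 were tested. Of these 1 was called lower, none was called higher, and the median change was -0.17; 1.41% were called, beside the 2.57% over all genes. The called gene was Nat2, an N-acetyltransferase of arylamines, at 25.7, 20.0 and 24.5 CPM against 17.3, 14.96 and 16.5 CPM. It fell by 0.52 on the log2 scale (SE 0.12, edgeR adjusted p = 0.0478). The call held without wild type replicate 2. It was lost without wild type replicates 1 or 3 or Lingo2-/- replicates 1, 2 or 3 (adjusted p 0.0716 to 0.155), with limma voom (0.102) and with dispersions that are not robust (0.0627). Upper quartile factors added Akr1b8 and Mgst1, and edgeR with no filter called 11 of these genes.

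None of 14 regulators was called by edgeR, DESeq2 or limma voom, and 5 (35.7%) had an unadjusted p under 0.05, all lower. Over all genes that share was 18.6%. Rxra, the partner receptor of PXR, was at 58.9, 58.3 and 56.9 CPM against 50.9, 44.0 and 46.5 CPM (-0.30 ± 0.09, edgeR adjusted p 0.101). Tef, a clock output factor that binds the D-box, gave -0.35 ± 0.13 (adjusted p 0.179), and the PXR gene itself, Nr1i2, gave -0.24 ± 0.09 (adjusted p 0.188). Ahr (-0.08 ± 0.12) and Nfe2l2 (0.09 ± 0.09), the dioxin receptor and Nrf2, lay within 1 SE of 0. None of 24 electron donors and other phase 1 enzymes was called by edgeR or limma voom, 8 (33.3%) had an unadjusted p under 0.05 and DESeq2 called 2. Akr1b8 (-0.50 ± 0.13, edgeR adjusted p 0.0595) and Fmo5 (-0.47 ± 0.13, adjusted p 0.0895) had the smallest p. None of 14 uptake carriers was called by edgeR, DESeq2 or limma voom and 4 (28.6%) had an unadjusted p under 0.05. Slc22a18 (0.28 ± 0.10, edgeR adjusted p 0.142) had the smallest p.

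The authors' deposited table called 10 of the 89 members at an adjusted p under 0.05, a larger share than the 4.71% of its genes. Of these, 9 were lower in the authors' deposited table, beside 2.8% of its genes (Abcb1a, Ces2a, Ces2c, Cyp2c55, Cyp2d10, Cyp2d9, Cyp3a13, Cyp3a44 and Sult1d1) and 1 was higher, Cyp3a11, beside 1.9%. The 3 genes called here are among those 9, and the other 7 of the 10 had edgeR adjusted p-values from 0.0714 to 0.281 here.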

How the data were processed

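The authors deposited whole-number read counts per gene, and a comparison table with normalized signal, log2 fold change, test score and p-value columns, per the file headers. Reads were trimmed with Trimmomatic 0.39, and STAR, HTSeq and DESeq2 were used with build GRCm38, per the submitters' processing notes. Annotation release and strand setting were not given in the sources used here, and overlapping antisense genes are uncertain. The 5 summary lines of the count table, 56.6% to 61.0% of the alignments in it, were left out.

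The test was edgeR 4.0.16 (R 4.3.3) with filterByExpr, TMM and robust quasi-likelihood F tests of genotype for 16757 genes, with Benjamini-Hochberg adjustment and a threshold of 0.05. Errors after log2 fold changes are SEs, and errors after levels are SDs over 3 libraries. RPKM used merged exons of GENCODE M21. A count of 0 allows 3 reads, or 0.107 to 0.425 CPM by total counts, for counting error only. The test was checked on simulated counts. Replicates differed by 8.48 to 22.0 in chi-square per degree of freedom, so no library was a copy.

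Members and lists were chosen with earlier results of these data known. Named were all called members, the 2 most abundant per family, the 3 smallest p per group among the rest, members without overlap past 2-fold, and called pathway genes or the 2 smallest p per list. Other members were named with their values in view. Alternatives covered scaling, filter, test (DESeq2 1.42.0, limma 3.58.1 voom), dispersion, replicate block, thinning to 7060769 reads, 478 genes left out, and each library left out. Total counts for directions was added after the data were seen. The values of 1 gene on these lists are not reported here.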

Additional observations from a re-analysis of the deposited data

How the results depend on the processing

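Cyp3a44, Ces2a and Abcb1a were called in all 10 settings that kept every library, and without 1 library in 5, 3 and 4 of 6 fits. Genes called numbered 430, and 1493 with no filter, 655 with the DESeq2 Wald test and 174 to 674 without 1 library. Members called numbered 3, and 14 with no filter, 11 with DESeq2 and 0 to 6 without 1 library; phase 1 gave 8, 8 and 0 to 4, phase 2 gave 3, 1 and 0 to 1, and efflux gave 3, 2 and 0 to 2. Pathway genes called were 3 with upper quartile factors, 11 with no filter, 5 with DESeq2, 0 with dispersions that are not robust, 0 with limma voom and 0 to 3 without 1 library. With the replicate block 5 members were called, adding Ces2c and Cyp2d9, of them 4 in phase 1. Whether the numbers pair the libraries is not known. Deviations of same-numbered libraries correlated at -0.13, 0.13 and -0.02, and those of differently numbered libraries at -0.16 to 0.19. With 3 libraries per genotype these values cannot decide it. The median change without 1 library ran from -0.21 to -0.0463 for phase 1 (highest without Lingo2-/- replicate 3), from -0.17 to 0.0243 for phase 2 and from -0.20 to 0.0729 for efflux, each lowest without Lingo2-/- replicate 1. With total counts the log2 ratios of summed CPM were -0.20 (phase 1), 0.0351 (phase 2) and -0.17 (efflux), and efflux without Abcb1a gave -0.0621. Signs turned for 3 genes near 0. Abcc3 turned to -0.0072 (upper quartile factors), -0.0083 (no filter), -0.0144 (replicate block), -0.0209 (thinned), -0.044 (voom), and ran from -0.20 to 0.1351 without 1 library. Cyp4b1 turned to -0.0425 (replicate block) and -0.0324 (voom), and ran from -0.48 to 0.2506 without 1 library. Ugt1a7c ran from -0.1574 to 0.0655 without 1 library. Over the named genes 340 other values kept sign and call, 21 gained and 9 lost the call. The cause was not tested. The Lingo2-/- libraries held fewer reads than any wild type library, which limits members below 1 RPKM most.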

Other observations

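Of the 108 genes with a matching symbol outside the authors' deposited comparison table, 9 passed the filter on low counts here and 1 was called, Cyp2b10, the P450 known as the classic target of the receptor CAR. Cyp2b10 was chosen after its values were seen, and its wild type counts alone were too low to pass that filter. It entered the test only through the Lingo2-/- libraries, the group where it is higher, so its calls are weak support. Its reads were 8, 4 and 7 in wild type and 14, 15 and 10 in Lingo2-/- libraries, although the latter held fewer reads in all. On the CPM scale this was 0.272 ± 0.112 against 1.33 ± 0.477 (SD, n = 3), with no overlap. The log2 fold change was 2.24 ± 0.45 (SE, edgeR adjusted p = 0.0220). Cyp2b10 was called in the 9 other settings that kept every library and gave a value, and in 3 of 6 fits without 1 library; it was lost without wild type replicate 2 (adjusted p 0.0713), Lingo2-/- replicate 2 (0.111) or Lingo2-/- replicate 3 (0.0714). The receptor gene Nr1i3 (CAR) was too low to be tested, at 0.336 to 0.937 CPM in wild type and 0.116 to 0.689 CPM in Lingo2-/- libraries. Ugt2a3, a glucuronosyltransferase with 7 to 16 reads per library, gave 1.13 ± 0.49 (adjusted p 0.237). As for Cyp3a11, the highest Cyp2b10 value was in Lingo2-/- replicate 2, at 1.87 CPM.

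Clock genes held 2 calls among 11 tested (18.2%), both lower, beside 2.57% called over all genes. These were Nr1d1 (-1.02 ± 0.19, edgeR adjusted p 0.0169) and Nr1d2 (-0.45 ± 0.10, adjusted p 0.0328), which encode the REV-ERB repressors. Without Lingo2-/- replicates 2 or 3 the adjusted p was 0.0898 and 0.0976 for Nr1d1 and 0.108 and 0.12 for Nr1d2, and without wild type replicate 2 it was 0.106 for Nr1d2. Nr1d1 also lost its call with limma voom (adjusted p 0.0524) and with thinned counts (0.0594), and Nr1d2 with the replicate block (0.0727). Per2 was at 22.7, 14.7 and 23.8 CPM against 35.4, 30.4 and 35.1 CPM (0.73 ± 0.17, edgeR adjusted p 0.0573). It was called higher by the DESeq2 Wald test (adjusted p 0.00505), by limma voom (0.0446) and, in edgeR, with the replicate block (0.0153), with no filter (1.6e-07) and without wild type replicate 2 (0.0440) or 3 (0.0278). The time of day of harvest is not given in the sources used here, and its part in the values of drug-metabolizing genes was not tested.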
